A study of Mus musculus with 24 samples.

Results

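The probes described here were selected on their behaviour in the mesenchyme around the Müllerian ducts of mouse embryos that lack Wnt7a. Their signal was at least 2-fold lower at E14.5 than at E13.5 in null mesenchyme and similar at both stages in wild-type mesenchyme. Of the 20175 probes of the GeoMx panel, 56 met the rule. GeoMx Digital Spatial Profiling hybridises barcoded DNA probes to RNA in a tissue section, releases the barcodes from a chosen region with ultraviolet light and counts them by sequencing.

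The Müllerian ducts are paired epithelial tubes, wrapped in mesenchyme, that give rise to the oviducts, the uterus and the upper vagina. The ducts meet at the body midline and fuse, and the basement membrane between them, which is rich in laminin, breaks down. Wnt7a is a secreted Wnt ligand made by the duct epithelium and acts on neighbouring mesenchyme. Mice without it have a poorly patterned female tract, and exchange of signals between epithelium and mesenchyme is a general feature of this tissue.

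The series holds 24 libraries from 12 female embryos, with 3 embryos, given as biological replicates, for each combination of genotype and stage. The genotypes are wild-type and Wnt7a null; the null allele is not described further in the sources used here, and no other allele or treatment is given for any group. E13.5 precedes duct fusion, and E14.5 is the time at which the ducts lie against each other and basement membrane breakdown begins, per the series' design text. Each embryo gave 1 region of duct epithelium (MDE) and 1 of adjacent mesenchyme (MDM), chosen by laminin staining in a single section, and all sections lay on the same slide.

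The labels give no table of genes for the probes, and none of the 20175 identifiers matched the gene table used here. Gene names were therefore not used here, and neither Wnt7a itself nor any marker of epithelium, mesenchyme or another cell type was checked. Probes are named by their identifiers. Each region is a bulk sample, so fewer cells of a type and less RNA per cell cannot be told apart in any value below.

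Values are CPM, the count of a probe divided by all counts of its library and multiplied by 1000000. The stage change used for selection was the log2 ratio of the mean CPM at E14.5 to that at E13.5, each with 20 CPM added, computed in MDM for each genotype. A probe needed at least 60 CPM on average in null E13.5 MDM, which 2975 probes had. Of these, 70 had a null stage change of -1 or less. A wild-type stage change from -0.3 to below 0.7 left 59, with 10 removed below that window and 1 above it. A wild-type difference between MDE and MDM within 0.7 log2 units of 0 left the 56 members, with 3 removed for being brighter in MDM. At the same brightness floor, 1 probe rose by 1 or more in null MDM. With the genotypes exchanged, 2902 probes passed the floor in wild-type E13.5 MDM and 0 fell by 1 or more in wild-type, so that the exchanged rule found 0 members.

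The null stage change of the 56 members in MDM had a median of -1.12 and ran from -1.97 to -1.003, against medians of 0.11 over all probes and -0.25 over all probes past the floor. These values chose the members and carry no test. The selection was not set off by a gap, since 25 members lay between -1.1 and -1 and another 39 probes that met the other conditions lay between -1 and -0.9. RTS0068336, at -1.003, was the member nearest the threshold, and the nearest probe outside it stood at -0.999; these were picked for their place at the threshold. In wild-type MDM the stage change of the members had a median of 0.04, with 31 above 0 and 25 below.

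In MDM the E14.5 level of a member was 41.5% of its E13.5 level at the median in null embryos, with a range of 22.9% to 47.7%. The corresponding value in wild-type embryos was 103% (79.3% to 164%). The median member stood at 315, 374 and 233 CPM in the null E13.5 MDM libraries and at 124, 144 and 109 CPM in the null E14.5 ones. It stood at 252, 281 and 393 CPM in wild-type E13.5 MDM and at 352, 327 and 329 CPM in wild-type E14.5 MDM. The 3 null E14.5 libraries were the lowest of the 12, and null E13.5 lay within the range of the wild-type libraries except for replicate 3, which was slightly below it.

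The embryos' epithelium was a separate set of libraries. The rule used wild-type MDE only for the region difference and did not use null MDE, although it came from the same embryos. The members also fell in null MDE: the median member stood at 453, 453 and 263 CPM at E13.5 and at 141, 198 and 129 CPM at E14.5. In wild-type MDE it stood at 323, 351 and 465 CPM at E13.5 and at 393, 361 and 384 CPM at E14.5. The null E14.5 libraries lay below all other MDE libraries, whereas the stages overlapped in wild-type. By group, the library medians averaged 390 ± 110 CPM in null E13.5 MDE, 156 ± 36.9 CPM in null E14.5, 380 ± 75.4 CPM in wild-type E13.5 and 379 ± 16.9 CPM in wild-type E14.5 (SD, n = 3 embryos each). A name that ties the fall to mesenchyme would therefore not describe these probes.

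**Figure D1:**
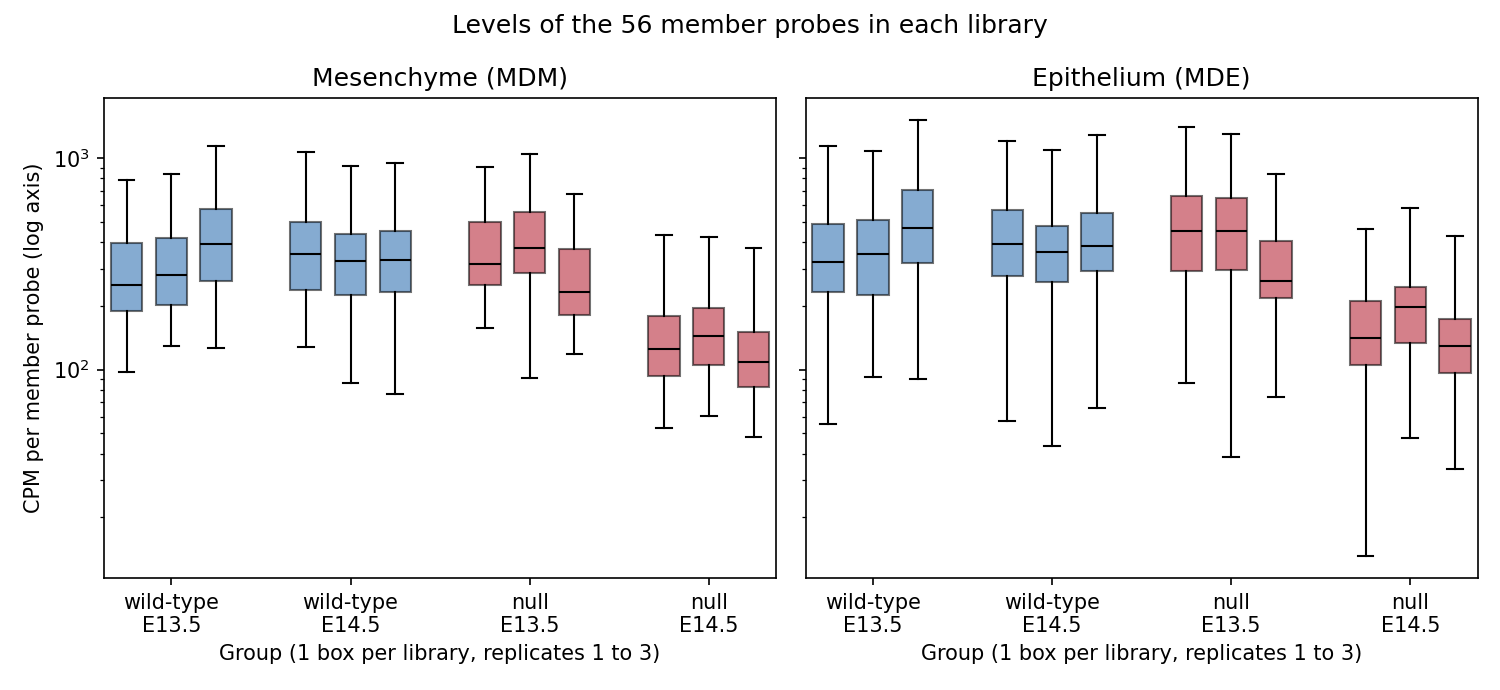
Levels of the 56 members in each of the 24 libraries, in CPM on a log axis, with mesenchyme on the left and epithelium on the right. Each box gives the quartiles and median over the members in 1 library and the whiskers their lowest and highest value. The 3 null E14.5 boxes sit lowest in both regions, with medians of 109 to 144 CPM in MDM and 129 to 198 CPM in MDE.

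The fall in null epithelium was tested with edgeR's quasi-likelihood test on the 12 MDE libraries, with Benjamini-Hochberg adjustment over all 14758 probes that passed the low-count filter. All 56 members passed that filter. From E13.5 to E14.5 in null MDE, 45 of the 56 members were called lower at an adjusted p under 0.05 and 0 higher. Over all probes tested, 1.8% were called lower, and over the 2970 of them past the brightness floor 8.05% were. Non-members past the floor were dimmer than members in null E13.5 MDE, where library medians averaged 82.7 CPM against 390 CPM. Shares over probes past the floor, here and below, are thus not matched for brightness. The log2 fold change was negative for all 56 members, with a median of -1.28, a range of -2.04 to -0.66 and a median SE of 0.292. The median was 0.01 over all probes tested and -0.30 over non-members past the floor. At least a 2-fold lower value was fitted for 40 members.

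RTS0081238 fell furthest in null MDE and also had the lowest null stage change in MDM. Its CPM was 755, 994 and 550.4 in null E13.5 MDE and 128, 312 and 111 in null E14.5 MDE. Even the highest of the later libraries, replicate 2, lay below the lowest of the earlier ones. The log2 fold change was -2.04 (SE 0.303, adjusted p = 7.48e-08). In wild-type MDE the same probe stood at 720.3, 560.4 and 986 CPM at E13.5 and at 849, 560.2 and 666 CPM at E14.5, with overlapping stages. RTS0068666 followed, with 878, 785 and 375 CPM at E13.5 and 134, 241 and 122.7 CPM at E14.5 in null MDE. Its log2 fold change was -2.02 (SE 0.302, adjusted p = 8.58e-08).

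RTS0078724 and RTS0081207 are named as the members with the highest CPM in null E13.5 MDM. A probe's brightness depends on the probe as well as on the transcript, so levels are not compared between probes. RTS0078724 stood at 1396, 1208 and 838 CPM in null E13.5 MDE and at 461, 403 and 428 CPM in null E14.5 MDE. RTS0081207 stood at 1029, 1032 and 659.9 CPM and then at 330.5, 320.4 and 308 CPM. For both probes the stages were well separated in null MDE, with log2 fold changes of -1.46 (SE 0.304) and -1.55 (SE 0.302), and both were called lower.

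The 11 members that were not called in null MDE had log2 fold changes from -0.92 to -0.66 and adjusted p from 0.0769 to 0.307. The smallest fall was that of RTS0075717, named here after its value was seen. It had 662, 544 and 408 CPM at E13.5 and 337, 414 and 292 CPM at E14.5 in null MDE, so that the stages overlapped slightly. Over the members, the later null MDE libraries all lay below the earlier ones for 49 of 56, against 6.78% of all probes and 28.3% of probes past the floor.

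The number of calls depended on single libraries. Without null E14.5 MDE replicate 3, 24 members were called, beside 0.541% of all probes tested, and without null E13.5 MDE replicate 1, 26 were, beside 0.62%. Without null E13.5 MDE replicate 3, in which the members stood lowest among the null E13.5 libraries, 53 were called, beside 3.32% of all probes. In these fits the share called over all probes moved in the same direction as the member count. Without null E14.5 MDE replicate 2 it did not: 46 were called beside 1.26%, against 45 and 1.8% with all libraries. The number of members also depended on single embryos. The rule found 28 without null E13.5 embryo 2, 104 without null E13.5 embryo 3 and 70 without null E14.5 embryo 1. Without the MDE library of that last embryo, 34 of the 56 members were called, beside 1.16% of all probes.

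In wild-type MDE, 0 of the 56 members were called lower or higher with stage by edgeR, and the lowest adjusted p was 0.6004. DESeq2 also called 0. At an unadjusted p under 0.05, edgeR found 1 member, RTS0075799, which had a positive fold change, beside 1064 of the 14758 probes tested. Over all probes tested 0.0203% were called lower, and over those past the floor 0.0673% were. The median log2 fold change of the members was 0.09 (-0.48 to 0.67, median SE 0.295), with 34 positive and 22 negative. The lowest p among negative changes belonged to RTS0077469, at -0.44, and RTS0068663, at -0.43, and among positive ones to RTS0075799, at 0.67, and RTS0075717, at 0.56. RTS0075799 had 166, 351 and 451 CPM at E13.5 and 427, 466 and 530.4 CPM at E14.5, so replicate 1 of E13.5 was low and the stages overlapped. Wild-type E14.5 lay wholly below E13.5 for 2 members, against 7.27% of all probes and 6.22% of those past the floor.

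**Figure D2:**
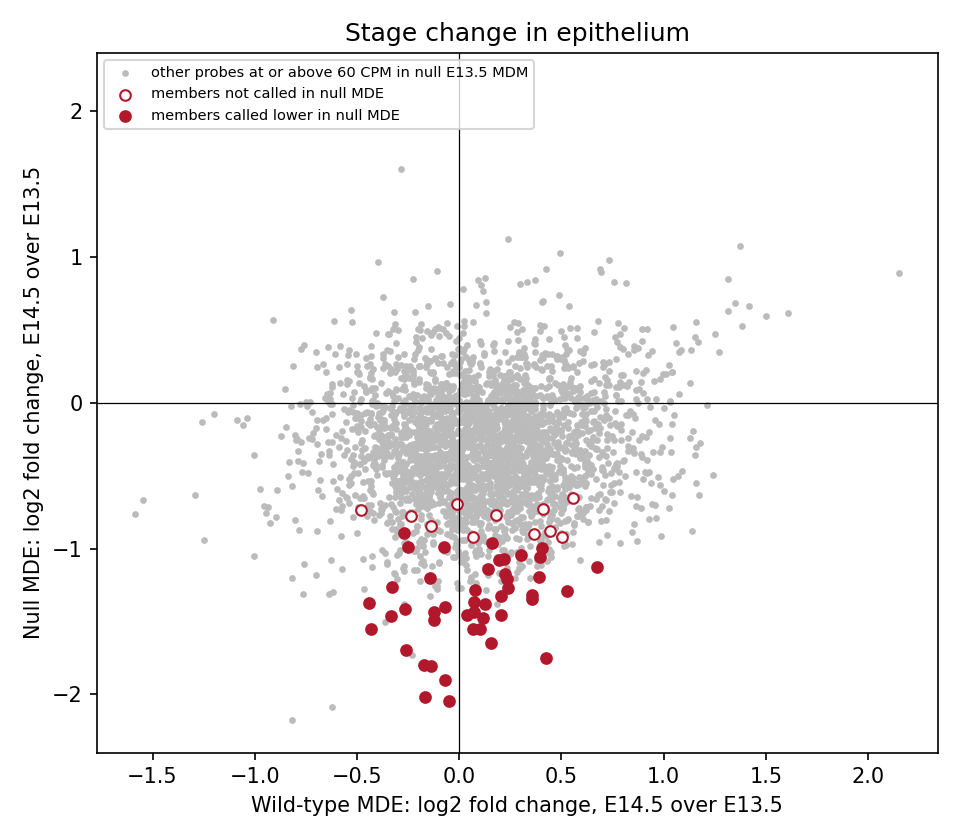
Stage change in epithelium, as edgeR log2 fold changes of E14.5 over E13.5, in wild-type (horizontal) and null (vertical) MDE. Filled red points are the 45 members called lower in null MDE, open red points the 11 members not called, and grey points the other probes past the brightness floor. All members lie below 0 on the vertical axis, from -2.04 to -0.66, and on either side of 0 on the horizontal axis.

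The difference between these stage changes, the interaction of genotype and stage, was tested in the same fit. It was negative for all 56 members, with a median of -1.38 and a range of -2.17 to -0.26 (median SE 0.414). The test called 17 members, all with the larger fall in null, against 0.278% of all probes tested and 1.31% of those past the floor. At an unadjusted p under 0.05, 50 members passed, beside 1662 of the 14758 probes tested. RTS0071705 had the lowest adjusted p, 0.00243 by edgeR, with a difference of -2.17 (SE 0.415). It went from 460.4, 593 and 342 CPM to 137, 172 and 109.8 CPM in null MDE, and from 289, 265 and 458 CPM to 382, 433 and 456 CPM in wild-type MDE. The stages were separate in null and overlapped in wild-type. RTS0081238 followed with -1.99 (SE 0.421, adjusted p = 0.0108).

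The interaction count rested on single libraries in both directions. At least 46 and at most 55 members passed an unadjusted p of 0.05 with any 1 library left out. All probes at that p were not counted in these fits. The number of members called varied. It was 44 without null E13.5 MDE replicate 3 and 39 without wild-type E13.5 MDE replicate 3, and the share called over all probes was then 2.28% and 1.22%, up from 0.278%. It was 0 without null E14.5 replicate 3, null E13.5 replicate 2, or wild-type E13.5 replicate 1 or 2. It was 1 without null E14.5 replicate 1, or wild-type E14.5 replicate 1 or 3, and 2 without null E13.5 replicate 1 or wild-type E14.5 replicate 2. In all these fits with 0, 1 or 2 calls, at most 0.037% of all probes tested were called lower. Only the deeply sequenced null E14.5 replicate 2 could be left out with the count within 1.5 times of 17, at 24, beside 0.51% of all probes.

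At E14.5 the members were lower in null than in wild-type MDE: 53 of 56 were called by edgeR and 0 higher, against 4.61% of all probes tested and 19.4% of those past the floor. The median log2 fold change was -1.35 (-1.98 to -0.51, median SE 0.289), beside 0.04 over all probes, and 47 members were at least 2-fold lower. All 3 null libraries lay below all 3 wild-type libraries for 54 members, against 6.9% of all probes and 32.5% of those past the floor. RTS0081238 had the lowest p, at -1.98 (SE 0.302, adjusted p = 4.23e-07). RTS0065840 was next, with 13.1, 49.6 and 50.1 CPM in null and 137, 114 and 123.4 CPM in wild-type E14.5 MDE. Its log2 fold change was -1.62 (SE 0.260, adjusted p = 1.52e-06). The null level of this probe was 1.20 times the background of its libraries, so the fold change runs into the background.

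At E13.5 the genotypes did not separate the members in MDE. By edgeR 0 of 56 were called, and DESeq2 called 0. At an unadjusted p under 0.05 by edgeR, 0 members passed, beside 634 of the 14758 probes tested. Over all probes tested 0.00678% were called lower, and 0.0337% of those past the floor. The median log2 fold change, null over wild-type, was -0.01 (-0.38 to 0.46, median SE 0.2995), with 28 members on either side of 0. RTS0077488 and RTS0076697 had the lowest p among the negative changes, at -0.38 and -0.37, and RTS0071705 and RTS0068658 among the positive ones, at 0.46 and 0.44. With a median SE of this size, small differences between the genotypes at E13.5 were not detectable. The even split also rested on single libraries. Without null E13.5 MDE replicate 3 the median was 0.26 with 8 members negative, and without wild-type E13.5 MDE replicate 3 it was 0.19 with 8 negative. Without null E13.5 MDE replicate 2 it was -0.13 with 43 negative.

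Of the 45 members called lower with stage in null MDE, 43 were also called lower in null at E14.5, and 17 were called in both of these and in the interaction. These comparisons share the null E14.5 libraries. The 1 member called in none of them, RTS0061722, named for that reason after its values were seen, had 93.5, 38.4 and 73.9 CPM in null E13.5 MDE and 26.2, 47.7 and 33.9 CPM in null E14.5 MDE. It was dim in MDE, at 1.15 times background in null E14.5, and its log2 stage change was -0.74 in null and -0.48 in wild-type.

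**Figure D3:**
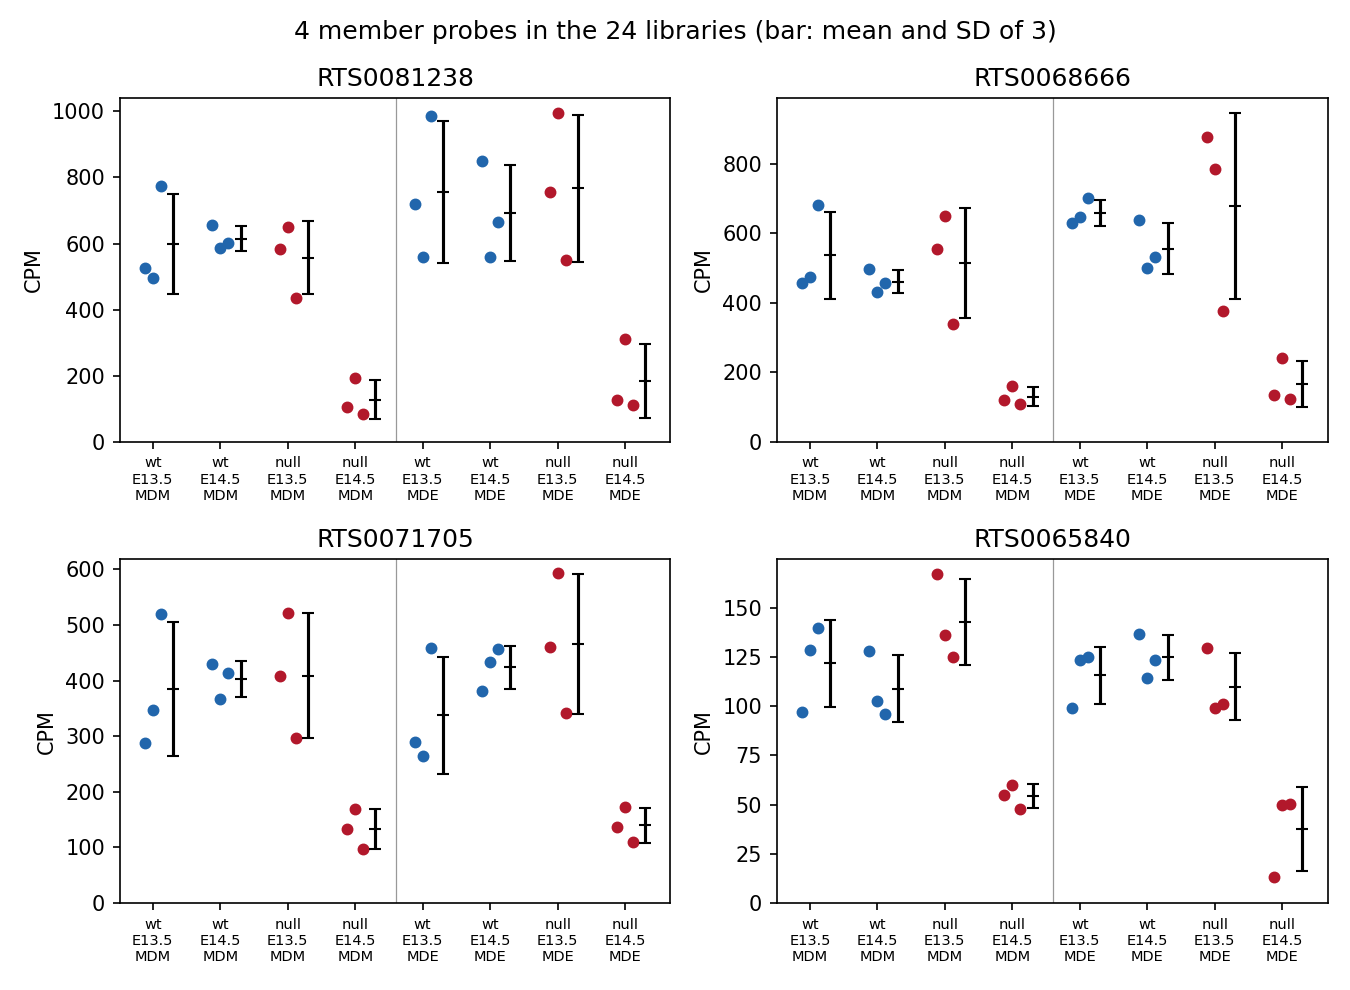
CPM of 4 members in all 24 libraries, with 1 point per library and the mean and SD of 3 libraries beside each group. MDM groups are left of the grey line and MDE groups right of it, with wild-type in blue and null in red. In each panel the 3 null E14.5 libraries are lowest in both regions, for example at 111 to 312 CPM for RTS0081238 in MDE.

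The rule asked for similar levels of a probe in both wild-type regions, and within that window the members leaned to the epithelium. The mean wild-type difference, MDE minus MDM on the log2 scale, was positive for 45 members and negative for 11. Followed embryo by embryo, the median member was brighter in the epithelium in all 12. The wild-type embryos among them gave the values that the rule filtered on. That filter removed 3 probes brighter in MDM and 0 brighter in MDE. Region differences of null embryos did not enter the rule, although their MDM levels did. The median difference averaged 0.24 ± 0.12 in null E13.5, 0.24 ± 0.12 in null E14.5, 0.24 ± 0.056 in wild-type E13.5 and 0.20 ± 0.024 in wild-type E14.5 embryos (SD, n = 3 each). Between 37 and 49 of the 56 members were higher in MDE in any embryo. The median over all probes lay between -0.061 and -0.0070 in each embryo, and that over non-members past the floor between -0.024 and 0.036. The group means of this lean thus differed by less than the spread between null embryos, while the level of the members was lower at E14.5 in both regions of null embryos.

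Across the 56 members, the stage change in null MDE tracked the one in null MDM that chose them, with Pearson's r = 0.77 and Spearman's rho = 0.70. This is a description over members, which are not independent and whose libraries come from the same 6 embryos. With the log2 level in null E13.5 MDM the MDE change had r = -0.36, and with the wild-type stage change in MDM it had r = 0.16.

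Several properties of whole libraries moved with the same groups. Signal contrast, the share of counts on the 1009 brightest probes, was 22.8% ± 4.38 in null E13.5 MDE and 17.5% ± 1.78 in null E14.5 MDE, against 22.9% ± 3.93 and 27.6% ± 1.20 in wild-type (SD, n = 3 each). Background, the mean CPM of the 5044 dimmest probes, was 25.7 CPM at E13.5 and 31.3 CPM at E14.5 in null MDE, against 25.5 and 23.7 CPM in wild-type MDE. MDM libraries had the same order. Mean contrast was lower in MDM than in MDE in each group. At E13.5 and E14.5 it was 21.3% and 16.1% in null MDM and 21.8% and 25.7% in wild-type MDM. Whether this bears on the members' lean to the epithelium was not tested. At E14.5 the genotypes did not overlap in MDE contrast, where null libraries held 16.0% to 19.5% and wild-type libraries 26.5% to 28.9%. Non-members past the floor had a median of 82.7 CPM in null E13.5 MDE and 67.0 CPM in null E14.5 MDE.

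The members' share of all counts went from 2.48% ± 0.627 to 1.01% ± 0.181 in null MDE and from 2.44% ± 0.454 to 2.47% ± 0.175 in wild-type MDE. Over the same stages, the share on the brightest probes with the members left out went from 20.4% to 16.5% in null MDE and from 20.4% to 25.2% in wild-type MDE. In null E13.5 MDE replicate 3 that share was 16.1%, inside the range of 14.8% to 18.5% of the null E14.5 MDE libraries. The members held 1.76% of counts in that library and 0.860% to 1.21% in the null E14.5 ones.

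**Figure D4:**
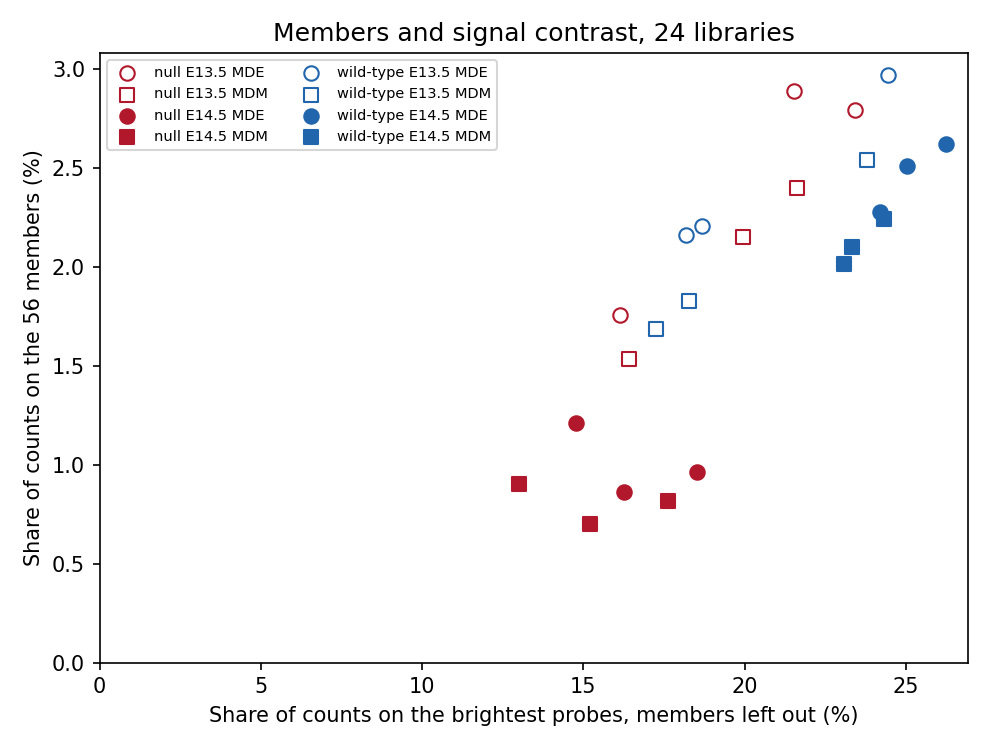
Share of counts on the 56 members (vertical, %) against the share on the brightest probes with the members left out (horizontal, %), 1 point per library. Null is red and wild-type blue, E13.5 open and E14.5 filled, MDE circles and MDM squares. The 6 filled red points lie at 0.699% to 1.21% of counts on the members, below every other library, while on the horizontal axis they overlap with open points.

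With signal contrast as a covariate in edgeR, the median stage change of the members in null MDE was -0.83 (median SE 0.265), and 18 were called. All 56 stayed negative, and 0.183% of all probes tested were called lower in that fit. With the members left out of the contrast, the median was -0.89 and 26 were called, beside 0.366% of all probes. The genotype difference at E14.5 had a median of -0.58 (median SE 0.362) under the first covariate, and 0 members were called, with 17 below an unadjusted p of 0.05. With the members left out of the contrast it had a median of -0.65, and 0 members were called, with 26 below that p. Of all probes tested, 0% and 0.0136% were called lower at an adjusted p under 0.05 in these fits. Without a covariate, 55 members passed the unadjusted p of edgeR, beside 2808 of all 14758 probes tested. All probes passing it were not counted in the covariate fits, so the 17 and 26 have no share beside them. Genotype and contrast cannot be told apart at E14.5, where the ranges do not touch. The interaction lost all its calls under either covariate, and 0 of all 14758 probes tested were called for it. In wild-type MDE the median stage change of the members was -0.21 under either covariate, beside 0.09 without one. There 42 members were negative and 0 were called, beside 0.0203% and 0.0136% of all probes called lower.

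Subtracting the background of each library gave a similar contrast between the genotypes. The E14.5 level above background was 35.1% of the E13.5 level at the median member in null MDE (7.44% to 61.8%) and 101.1% in wild-type MDE. In MDM these values were 32.5% and 104%. In null E14.5 MDE the median member stood at 5.37 times background, and 2 members, RTS0061722 and RTS0065840, lay under 1.5 times. Tested with limma on background-subtracted signal, 0 members were called in null MDE, as was the case for all 9010 probes tested there. The median log2 fold change there was -1.06. Limma on the same probes without subtraction gave -1.18 and called 12 members, beside 0.166% of those probes called lower. In edgeR, which differs in scaling and probes tested as well, the median was -1.28. With subtraction, 34 members had an unadjusted p under 0.05 in limma with a negative fold change. All probes below that p were not counted there.

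Totals ran from 139017 to 2618342 counts in MDE and from 1039606 to 12379529 in MDM. Null E14.5 MDE replicate 2, with the highest MDE total, had 24.1 aligned reads per count, against 2.07 to 2.38 in the other 11 MDE libraries. Without it the median stage change of the members in null MDE was -1.47, and 46 were called, beside 1.26% of all probes tested. Within a library, the count of the median member ran from 43 to 518.5 in MDE and from 261.5 to 1782 in MDM. No libraries were identical. The closest replicates, wild-type E14.5 MDE 2 and 3, barely differed beyond counting noise (chi-square per degree of freedom 1.056, p = 0.0437 over 1919 probes). The MDM libraries of the same embryos had 1.160 (chi-square p = 4.89e-53 over 20175 probes). That lower p came with higher totals and more probes, so the 2 p-values do not compare the size of the differences. These libraries were kept as separate samples.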

How the data were processed

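The deposited values are raw counts per probe, and the file headers name version 2.3.5 of the GeoMx NGS Pipeline. How the pipeline collapsed reads into counts is not given in the sources used here. The submitters' processing notes list GRCm38.p6. Probes not listed in a library were set to 0. No deposited normalisation was used, and control probes were not identified.

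For the 12 MDE libraries, edgeR 4.0.16 (R 4.3.3) was run on the counts (TMM, filterByExpr with a minimum count of 10, robust quasi-likelihood fit, Benjamini-Hochberg adjustment over all probes tested, threshold 0.05), with a mean per genotype and stage. SE is the size of the log2 fold change over the square root of F. Levels are CPM by library sum, and fold changes are TMM-scaled. MDM values chose the members and were not tested.

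Alternatives were upper-quartile scaling, DESeq2 1.42.0, other filters, only the 6 libraries compared, a replicate block, signal contrast as a covariate, thinned counts, limma 3.58.1 on background-subtracted signal, other member rules and leaving out each library. Signal contrast without the members and limma without subtraction were added after seeing the data. The members, tests, named probes and alternatives were chosen with earlier results of these data known. Named probes are the members with the lowest p per comparison (at most 2 per direction), the lowest null stage change and the highest CPM; others are said to be chosen after their values were seen.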

Additional observations from a re-analysis of the deposited data

Results flagged for a closer look

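Stage changes in MDE differed between the genotypes by the interaction test of edgeR for 17 of the 56 members, beside 0.278% of all probes tested and 1.31% of those past the brightness floor. Leaving out 1 library took this count to between 0 and 44, and the share called lower over all probes to between 0% and 2.28%. The largest such difference was -2.17 log2 units for RTS0071705, and RTS0081238 followed with -1.99. For all 17 the change from E13.5 to E14.5 was lower in null than in wild-type epithelium. Signal contrast was lower at E14.5 than at E13.5 in null MDE and higher in wild-type MDE. With it as a covariate the interaction test called 0 members and 0 of all 14758 probes tested. Of the members, 14 had a negative difference with an unadjusted p under 0.05 in that test. All probes at that p were not counted in it. Without the covariate 50 members passed, beside 1662 of all 14758 probes tested. Groups of 3 libraries are too small for a test of single outlying libraries.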

How the results depend on the processing

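The fall of the members in null MDE kept its sign for every member tested under all alternatives run (56 members, 55 with DESeq2, 94 with TMM-scaled CPM). The number called, 45 at first (beside 1.8% of all probes called lower), was 18 with signal contrast as a covariate (0.183%) and 26 with contrast without the members (0.366%). It was 12 with limma without subtraction (0.166%) and 0 with limma on background-subtracted signal (0%, with 34 members unadjusted). It ranged from 24 to 53 when 1 library was left out, beside 0.493% to 3.32% of all probes, and the median change from -1.55 to -1.18. That median was -0.80 with a minimum count of 20, -0.83 with contrast and -0.89 with contrast without the members. The 53 members called lower in null MDE at E14.5 became 0 under either contrast covariate. In those fits 0% and 0.0136% of all probes were called lower. With background-subtracted limma 0 members and 0 of the 9010 probes tested were called. In that test 40 members were lower at an unadjusted p under 0.05, with a median log2 fold change of -1.14 beside -1.35. Without 1 library the E14.5 count ranged from 41 to 53, beside 1.82% to 5.27% of all probes. The interaction, with 17 calls, had 46 with DESeq2 (21.4% of the 1311 probes given an adjusted p were called lower, against 0.278% of 14758 at first), 11 with no filter (0.144%), 1 with a minimum count of 20 (0.046%), and 0 with either contrast covariate (14 and 22 unadjusted), with background-subtracted limma (17 unadjusted) and with limma without subtraction (48 unadjusted). In these covariate and limma fits with 0 member calls, 0 of all probes tested were called for the interaction. The interaction count ranged from 0 to 44 without 1 library, beside 0% to 2.28% of all probes called lower. With the replicate number as a block the interaction had 7 calls (0.149% of all probes), the null stage change 40 (1.63%) and the E14.5 genotype difference 51 (4.07%). Same-numbered libraries did not deviate together (r over 0.1 in 1 of 18 pairs, -0.23 to 0.19), so the block is no pairing. Wild-type stage and E13.5 genotype calls of members stayed at 0 throughout. The wild-type median, 0.09 at first, was -0.21 under either contrast covariate. There 42 of 56 members were negative and 8 were lower at an unadjusted p under 0.05 by edgeR, against 22 and 0 at first. In the alternatives, an unadjusted p was counted for members only. The unadjusted counts given here thus have no share over all probes beside them.

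The number of members, 56, was 94 with TMM-scaled CPM, 32 with 40 CPM added, 137 at a threshold of -0.8, 19 at -1.2, and 28 to 104 without 1 embryo. Of the 94, 69 were called lower with stage in null MDE, beside 1.8% of all probes tested, and 88 in null at E14.5, beside 4.61%. These 94 were also chosen on the MDM of the same embryos. Upper-quartile scaling moved the median null stage change of all probes from 0.01 to 0.16 and that of the members from -1.28 to -1.105. It changed the split of all probes called lower and higher from 265 and 23 to 165 and 70, and for genotype at E14.5 from 681 and 116 to 483 and 269. The causes of these changes were not tested. The lowest count of a member in an MDE library was 4.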
